A study of Mus musculus with 12 samples.

Results

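The dystrophin-glycoprotein complex and the intermediate filaments of smooth muscle cells were followed through 10 genes, *Dmd*, *Utrn*, *Dag1*, *Sgca*, *Sgcb*, *Sgcd*, *Sgce*, *Des*, *Vim* and *Synm*. The members were chosen by symbol, and each was the one row of the count matrix whose Ensembl identifier carried that symbol, giving 10 of 52636 genes. All 10 passed the filter on low counts, as did 22320 genes in all. All are protein-coding genes counted over their exons. Of those on which the results turn, *Dmd* spans chrX:82948870-85206141, *Utrn* chr10:12382188-12869365, *Sgcb* chr5:73632749-73647790, *Vim* chr2:13573927-13582826 and *Des* chr1:75360329-75368579 (GRCm38, GENCODE M21).

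Dystrophin is a long cytoskeletal protein that binds actin inside the muscle cell and dystroglycan at the membrane, and dystroglycan in turn binds laminins and related proteins of the basement membrane. The sarcoglycans are membrane proteins that stabilise this link, and loss of single components causes muscular dystrophies. Intermediate filaments built from vimentin and desmin, joined by the large protein synemin, run through the smooth muscle cell between its dense bodies and its membrane attachments, and synemin also binds the dystrophin complex.

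The data were bulk RNA-seq of GFP-positive smooth muscle cells (SMCs) sorted from thoracic aortas of C57BL/6J mice, 12 weeks old, in 12 libraries. Control mice (GFPiSMC) carried Myh11-CreERT2.mT/mG, a tamoxifen-inducible Cre driven by the smooth muscle myosin promoter with a reporter that turns green once Cre has acted. Mutant mice (Tgfbr1/2iSMCKO) carried the same 2 transgenes together with floxed alleles of both TGF-β receptor genes (Tgfbr1f/f and Tgfbr2f/f), so that both genotypes had Cre, reporter and tamoxifen and the controls had no floxed allele. Tamoxifen was given for 5 days, for which the labels list 1 mg/d at 4 weeks or 2 mg/d at 11 weeks of age. The study describes these cells as profiled 1 week after receptor loss, which corresponds to the second schedule, and its methods give the first for a subgroup. The driver sits on the Y chromosome according to those methods, so all animals were male, and cells in which Cre had not acted were left out by the sort. Each genotype gave 3 libraries of the ascending aorta and arch and 3 of the descending thoracic aorta, each from 1 aortic segment and 9208 to 20000 sorted cells, and segments with the same number in the labels were taken to come from 1 animal.

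Total counts ran from 20467027 to 31392396 per library. The 7 SMC markers summed to 39788–47783 CPM (counts scaled to a common library total) in GFPiSMC and 33862–42719 in Tgfbr1/2iSMCKO libraries, against 23.3–150 and 13.9–226 for the 7 fibroblast markers, 67.9–101 and 55.6–105 for the 7 endothelial markers (almost all *Pecam1*), and 6.2–13.4 and 7.12–22.2 for the 7 macrophage and leukocyte markers. Between genotypes, markers were tested in edgeR at an adjusted p of 0.05. Passing were 0 of the 7 SMC, 0 of the 6 fibroblast and 0 of the 6 macrophage and leukocyte markers. Among all genes 3.23% passed as lower and 1.8% as higher in mutants. At an unadjusted p under 0.05 stood 2, 0 and 1 of these markers. The 2 SMC markers were *Acta2* (log2 difference −0.23, adjusted p = 0.264) and *Tagln* (−0.32, adjusted p = 0.0699). Of the 7 endothelial markers 1, *Cdh5*, rose from 0.169 to 1.26 CPM (adjusted p = 0.025). Of the endothelial markers 2 had an unadjusted p under 0.05, as did 16.1% of all genes. The median of the endothelial log2 differences was 0.71 beside 0.04 over all genes. *Pecam1* differed by −0.13, and the other 6, each at a mean of at most 5.74 CPM in either genotype, by 0.42 to 2.97. *Tgfbr1* measured 235 ± 35.3 CPM in controls and 252 ± 33.0 in mutants (SD, n = 6), and *Tgfbr2* 106 ± 13.3 and 89.0 ± 12.5, with adjusted p = 0.79 and 0.233 (edgeR). The range over libraries was 196–292 against 198–295 CPM for *Tgfbr1* and 88.9–128 against 68.2–102 CPM for *Tgfbr2*. A count over the whole gene does not measure the removal of single exons, so these values do not check the deletion.

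Upstream windows of 250 bases before the annotated start (RefSeq, GRCm38.p6) were matched for 9 of the 10 members in 11 windows. The windows were searched on both strands for the CArG box, the site of serum response factor, for CAGAC, the letters SMAD proteins bind, for TATAAA and for the E-box CANNTG. Both *Dmd* windows are shown because the single *Dmd* count pools transcripts from starts 2.1 Mb apart, and the *Vim* and *Des* windows because the ratio of these filament genes is compared between genotypes. Capitals mark any of the 4 motifs, none of which overlapped another in these windows.

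Dmd start 1, chrX:82948620-82948869, plus strand: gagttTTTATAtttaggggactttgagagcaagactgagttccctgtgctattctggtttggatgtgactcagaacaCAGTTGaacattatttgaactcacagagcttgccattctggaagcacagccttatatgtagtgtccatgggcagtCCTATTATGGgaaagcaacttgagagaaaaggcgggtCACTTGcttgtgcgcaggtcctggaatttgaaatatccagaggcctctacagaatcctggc
Dmd start 2, chrX:85048045-85048294, plus strand: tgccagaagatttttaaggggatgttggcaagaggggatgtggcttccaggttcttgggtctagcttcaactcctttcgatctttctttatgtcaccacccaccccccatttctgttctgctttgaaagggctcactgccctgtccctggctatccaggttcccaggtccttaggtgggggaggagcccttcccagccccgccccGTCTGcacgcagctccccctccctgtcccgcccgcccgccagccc
Vim, chr2:13574061-13574310, plus strand: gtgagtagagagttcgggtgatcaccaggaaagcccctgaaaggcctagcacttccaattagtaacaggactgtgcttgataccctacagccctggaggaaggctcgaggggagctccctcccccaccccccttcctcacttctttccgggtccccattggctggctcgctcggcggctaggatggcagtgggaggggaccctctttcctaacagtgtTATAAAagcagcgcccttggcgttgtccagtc
Des, chr1:75360042-75360291, plus strand: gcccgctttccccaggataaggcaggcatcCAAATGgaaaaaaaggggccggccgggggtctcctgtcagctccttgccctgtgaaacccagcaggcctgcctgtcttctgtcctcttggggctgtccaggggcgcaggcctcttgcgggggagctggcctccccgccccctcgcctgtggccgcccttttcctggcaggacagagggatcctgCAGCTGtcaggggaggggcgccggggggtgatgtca

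The CArG box occurred in 1 of the 11 windows, that of the upstream *Dmd* start, and in 1.48% of 32536 mouse promoter windows of the same length. CAGAC occurred in 2 of the 11, the downstream *Dmd* start and *Utrn*, against 42.2% of all windows. TATAAA stood in 3 of the 11, among them *Vim* and the upstream *Dmd* start, against 12.3%, and the E-box in 8 of the 11 against 66.2%. The 2 *Dag1* windows overlapped each other, and the same E-box was counted in both. These matches describe letters in a window and not binding.

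Compared per kilobase of exon, *Vim*, the intermediate filament protein of mesenchymal cells, stood far above the other members, at 563 ± 103 CPM per kb (SD, n = 12). It was 8.51 times the next gene and above it in 12 of 12 libraries. The desmin gene *Des* reached 14.4 ± 5.48 CPM per kb and *Synm* 6.05 ± 1.19. Among the complex genes, *Sgcb* led at 66.2 ± 11.1 CPM per kb, followed by *Sgca* at 48.4 ± 7.86, *Dag1* at 37.3 ± 8.43, *Dmd* at 23.5 ± 4.59, *Sgce* at 18.3 ± 2.22, *Utrn* at 7.85 ± 5.76 and *Sgcd* at 4.61 ± 0.898. Neighbours in this order from *Sgcb* to *Sgcd*, with *Des* between *Sgce* and *Utrn*, overlapped in range, and the higher of each pair was above the lower in 6 to 11 of 12 libraries, with *Utrn* above *Synm* in 6. With the longest transcript as the length, *Sgce* moved from the sixth to the fourth place at 44.0 ± 5.32 CPM per kb, and *Synm* and *Sgcd* exchanged the last places. Dystrophin transcripts thus stood above those of utrophin, its autosomal relative, in each of the 12 libraries, with *Utrn* to *Dmd* count ratios of 0.0801–0.454 in GFPiSMC and 0.0491–0.426 in Tgfbr1/2iSMCKO.

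**Figure D1:**
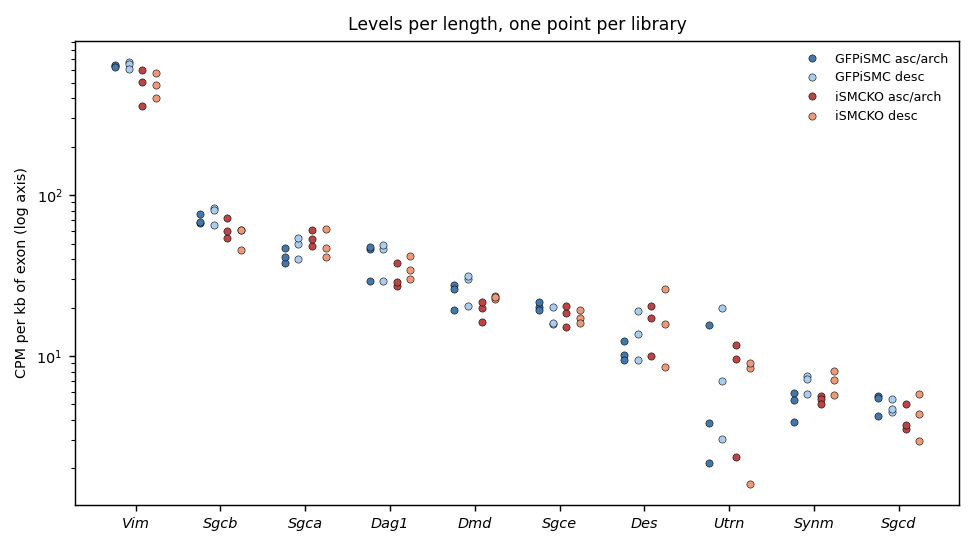
Level of each member in CPM per kb of exon (log axis), 1 point per library, with the 4 groups by colour and genes ordered by their mean over 12 libraries. *Vim* lies above all others in every library, and *Utrn* is scattered over the widest range, 1.61 to 19.9 CPM per kb.

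Deletion of the TGF-β receptors was compared with the control over all 12 libraries, with segment as a covariate. In edgeR's quasi-likelihood test, 0 of the 10 members passed an adjusted p of 0.05, where 3.23% of the 22320 genes tested were lower and 1.8% higher in Tgfbr1/2iSMCKO, and 2.67% passed with a change beyond 2-fold. At an unadjusted p under 0.05 stood 3 members, *Vim*, *Sgcb* and *Dmd*, all lower, beside 16.1% of all genes. DESeq2 also called 0 of 10, with 2 at an unadjusted p under 0.05. The log2 fold changes lay between −0.39 and 0.41, 7 below and 3 above 0, with a median of −0.25 beside 0.04 over all genes. In this fit a 2-fold difference lay outside the 95% interval for 9 of 10 members, *Utrn* being the exception. The *Des* interval ended at 0.99, just short of 2-fold, and the fit counts the 2 segments of an animal as separate libraries. With counts summed over both segments of each animal, 0 members passed (1.86% of genes did) and 1, *Vim*, had an unadjusted p under 0.05 (11.6% of genes).

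**Figure D2:**
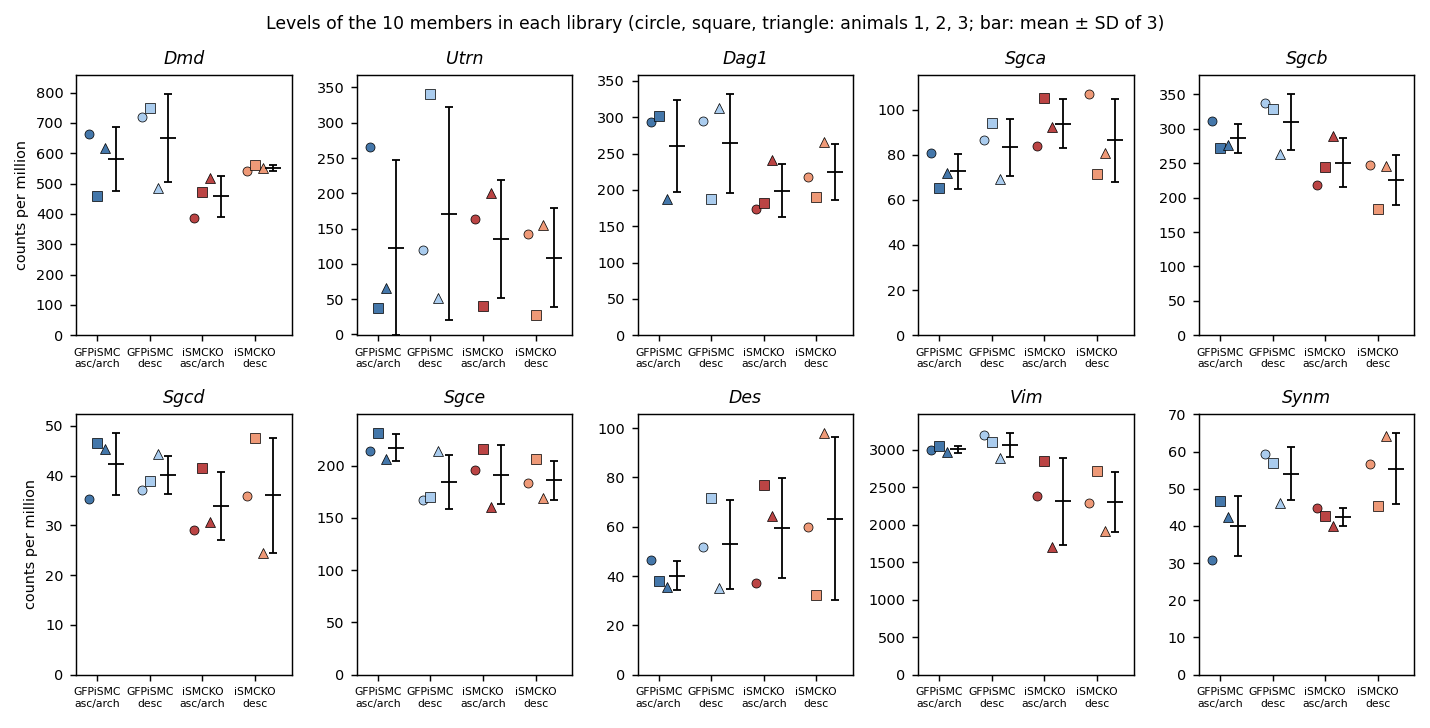
CPM of the 10 members in each library, with circle, square and triangle for animals 1, 2 and 3, colours for the 4 groups (iSMCKO, Tgfbr1/2iSMCKO) and bars for mean ± SD of 3 libraries. *Vim* is the one member whose 6 Tgfbr1/2iSMCKO libraries (1700–2855 CPM) all lie below the 6 GFPiSMC libraries (2892–3197 CPM).

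*Dmd*, the dystrophin gene, measured 662, 460 and 618 CPM in the ascending and 718, 750 and 484 CPM in the descending segments of GFPiSMC animals 1, 2 and 3. In Tgfbr1/2iSMCKO the values were 386, 471 and 518 CPM and 540, 560 and 552 CPM. The mutant libraries were below most controls, and the groups overlapped because 1 control library in each segment lay within the mutant range or below it. The log2 fold change was −0.29 (SE 0.13, 95% interval −0.57 to −0.01, adjusted p = 0.277, edgeR).

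*Utrn*, which encodes the dystrophin relative utrophin, measured 265, 36.8 and 65.5 CPM in the ascending and 120, 341 and 52.0 CPM in the descending segments of GFPiSMC. Tgfbr1/2iSMCKO gave 164, 40.5 and 201 CPM and 143, 27.5 and 155 CPM. In the mutants the same animal, number 2, was lowest in both segments, whereas control animal 2 was lowest of its group in one segment and highest in the other. The genotype difference of −0.26 had an SE of 0.60 and an interval from −1.56 to 1.05, so that neither a 2-fold decrease nor a 2-fold increase lay outside it.

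*Dag1* encodes dystroglycan, the laminin receptor at the core of the complex. It ranged from 187 to 312 CPM (median 294) in GFPiSMC and from 174 to 266 CPM (median 204) in Tgfbr1/2iSMCKO, with 2 of 6 mutant libraries below all controls. The difference was −0.31 (SE 0.16, adjusted p = 0.4, edgeR).

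Of the 4 sarcoglycan members 0 passed the test in edgeR, and 1, *Sgcb*, had an unadjusted p under 0.05. *Sgcb*, β-sarcoglycan, measured 311, 272 and 276 CPM in the ascending and 338, 329 and 263 CPM in the descending segments of controls, against 218, 244 and 290 CPM and 247, 184 and 246 CPM in mutants. Of the Tgfbr1/2iSMCKO libraries, 5 of 6 were below every control, and the difference of −0.32 (SE 0.12, interval −0.58 to −0.07) had an adjusted p of 0.165 (edgeR). Of these 6 libraries, 4 were below every control when scaled by library totals alone. *Sgca*, α-sarcoglycan, the partner found mainly in muscle, lay the other way, at 65.4–93.9 CPM (median 76.4) in controls and 71.5–107 CPM (median 88.0) in mutants, with a log2 difference of 0.21 (SE 0.14, adjusted p = 0.54). *Sgcd*, δ-sarcoglycan, ranged over 35.2–46.5 CPM and 24.4–47.6 CPM, a difference of −0.24 (SE 0.17). *Sgce*, ε-sarcoglycan, which takes the place of α-sarcoglycan in many smooth muscle complexes, ranged over 167–231 CPM and 160–216 CPM, a difference of −0.08 (SE 0.11, interval −0.32 to 0.15). With library totals alone as the scaling the *Sgce* difference was 0.038.

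*Vim* showed the narrowest spread in controls of the filament genes. GFPiSMC libraries measured 2996, 3048 and 2965 CPM in the ascending and 3197, 3105 and 2892 CPM in the descending segments. Tgfbr1/2iSMCKO libraries measured 2381, 2855 and 1700 CPM and 2284, 2712 and 1918 CPM, animal 3 being lowest and animal 2 highest in both segments. The highest mutant value was just under the lowest control value, so the groups did not overlap, as was so for 1 of the 10 members and 4.39% of all genes. The log2 fold change was −0.39 (SE 0.12, interval −0.65 to −0.14), with an adjusted p of 0.0789 in edgeR, 0.0601 in DESeq2 and 0.317 with counts summed per animal. *Vim* passed the threshold in 3 of 13 alternatives. These were edgeR with the replicate number as a block (adjusted p = 0.0317), limma-voom with animal as a random effect (0.0440), and edgeR without Tgfbr1/2iSMCKO animal 2 (0.00852). Nothing says that animals of different genotypes share a number. Leaving out animal 2 removed the highest mutant value of each segment. Scaled by library totals alone, 4 of the 6 mutant libraries (1739–2874 CPM) were below the controls (2822–3005 CPM). That scaling moved the median of all genes from 0.04 to 0.16. Fibroblasts, endothelial cells and macrophages also express *Vim*. The summed levels of their markers given above overlapped between genotypes, whereas 6 of the 7 endothelial markers had means that were higher in the mutants, 1 of them past the threshold. The median log2 difference was 0.28 for fibroblast, 0.71 for endothelial and 0.55 for macrophage and leukocyte markers, beside 0.04 over all genes. The part of these cells in the *Vim* values was not tested. In sorted bulk samples, fewer cells of a type and less RNA per cell cannot be told apart.

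*Des*, the muscle-specific filament gene, measured 46.7, 38.1 and 35.6 CPM in the ascending and 51.7, 71.5 and 35.2 CPM in the descending segments of GFPiSMC. Tgfbr1/2iSMCKO gave 37.3, 77.0 and 64.3 CPM and 59.7, 32.1 and 98.0 CPM, which enclosed the control range. The difference was 0.41 (SE 0.27, interval −0.16 to 0.99, adjusted p = 0.532, edgeR). *Synm*, the synemin gene, ranged over 30.9–59.4 CPM (median 46.4) and 40.0–64.3 CPM (median 45.1), a difference of 0.06 (SE 0.14, interval −0.24 to 0.36). *Synm* exons overlap those of *Ttc23* on the opposite strand, which averaged 457.8 counts beside 1279.1 for *Synm*, and the library kit does not mark strand, so reads in the shared stretch cannot be told apart.

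**Figure D3:**
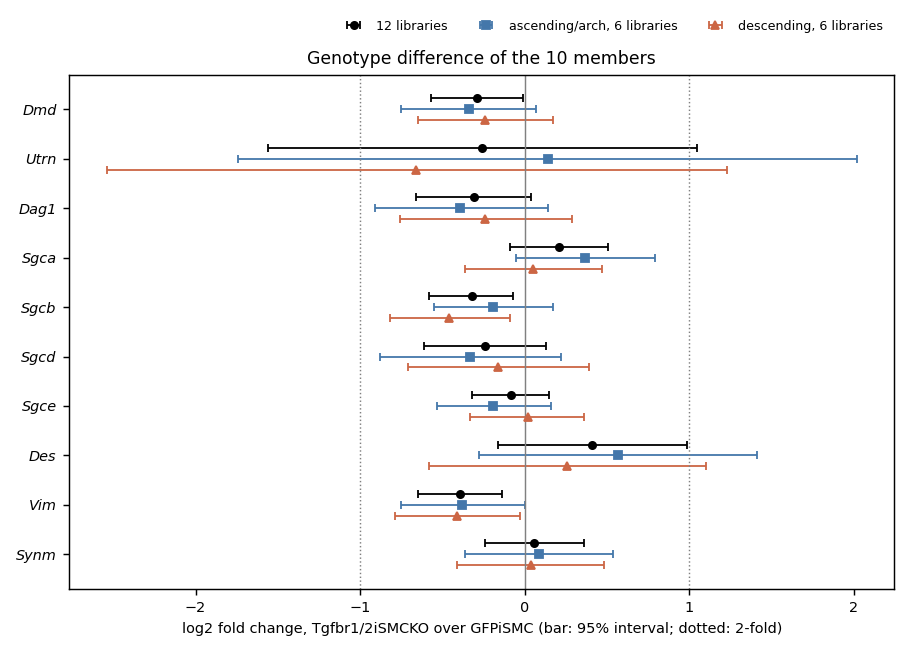
Log2 fold change of each member, Tgfbr1/2iSMCKO over GFPiSMC, over 12 libraries (circles) and within the ascending/arch (squares) and descending (triangles) segments, with 95% intervals and dotted lines at 2-fold. Over 12 libraries, the intervals of *Dmd*, *Sgcb* and *Vim* lie below 0, and *Utrn* has the widest interval, −1.56 to 1.05.

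Within the ascending aorta and arch, 0 of 10 members passed the adjusted threshold and 0 an unadjusted p of 0.05 (1.41% and 11.4% of genes, edgeR, and 0 and 0 members in DESeq2). The 3 mutant libraries were all below the 3 controls for *Vim* and all above them for *Sgca* (2 of 10 members, 19.0% of genes). Within the descending aorta 0 of 10 passed (1.72% of genes) and 2, *Sgcb* (−0.46, adjusted p = 0.292) and *Vim* (−0.41, adjusted p = 0.397), had an unadjusted p under 0.05 in edgeR (10.7% of genes), beside 1 in DESeq2. The same 2 members were the ones whose libraries did not overlap there (14.9% of genes). *Vim* was thus separated in both segments, by −0.38 (SE 0.17) and −0.41 (SE 0.17).

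The genotype effect was also set against segment in one model. No member had an interaction past the threshold (0 of 10, beside 0.0% of genes) or an unadjusted p under 0.05 (0 of 10, beside 2.95%), in edgeR or DESeq2. The differences between the segment effects ran from −0.8 for *Utrn* (SE 1.23) to 0.2 for *Sgce* (SE 0.22), and for *Vim* was −0.03 (interval −0.57 to 0.50). The *Des* and *Utrn* intervals reached beyond 2-fold, so a difference of that size between segments was not excluded for them.

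Comparison of the 2 segments within a genotype gave 0 of 10 members past the threshold in GFPiSMC (0.376% of genes) and 0 of 10 in Tgfbr1/2iSMCKO (0.112%). At an unadjusted p under 0.05 stood 0 members in GFPiSMC (5.98% of genes) and 0 in Tgfbr1/2iSMCKO (3.68%) in edgeR, and 1 and 0 in DESeq2. Of the 10, *Synm* was the one that was higher in the descending segment in 3 of 3 animals of each genotype, as were 1.98% of all genes. Its control animals measured 30.9, 46.7 and 42.4 CPM in the ascending and 59.4, 56.8 and 46.1 CPM in the descending segment, a difference of 0.44 (SE 0.21, interval −0.01 to 0.89, adjusted p = 0.86, edgeR), which ran from 0.23 to 0.59 over the alternatives. The mutants measured 44.9, 42.7 and 40.0 CPM against 56.6, 45.3 and 64.3 CPM, a difference of 0.38 (SE 0.21, adjusted p = 1.0, edgeR). The segments did not overlap for *Dmd* and *Synm* in Tgfbr1/2iSMCKO (2 of 10, 7.24% of genes) and overlapped for each of the 10 in GFPiSMC (0 of 10, 13.0% of genes). In the mutants *Dmd* stood at 386–518 CPM in the ascending and 540–560 CPM in the descending segment.

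Ratios of paired members within a library do not depend on its scaling, and 5 were compared over animals with a two-sided exact permutation test, whose smallest possible p with 3 against 3 is 0.1. The *Vim* to *Des* count ratio lay between 43.4 and 83.4 (median 72.0) in GFPiSMC and between 19.6 and 84.4 (median 37.7) in Tgfbr1/2iSMCKO. Averaged per animal, log2 ratios were 5.98, 5.88 and 6.37 in controls and 5.63, 5.81 and 4.51 in mutants, so that 3 of 3 mutants were below all controls by a mean of −0.76 (exact p = 0.1, adjusted p = 0.5), with animal 3 the lowest. Without mutant animal 3 the mean difference was −0.36. *Sgca* to *Sgce* differed by 0.29 (exact p = 0.2, adjusted p = 0.5), *Synm* to *Des* by −0.28 (exact p = 0.5, and −0.074 without mutant animal 3), *Utrn* to *Dmd* by 0.15 (exact p = 0.8) and *Sgcb* to *Sgcd* by −0.06 (exact p = 1.0).

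Other proteins of the dystrophin complex were taken from a list of 11, of which 10 could be tested. Of these, 3 fell in Tgfbr1/2iSMCKO and 0 rose over 12 libraries, and in each of the 3 the genotypes did not overlap. Among all genes 3.23% fell, 1.8% rose and 4.39% did not overlap. This list and those below were chosen with earlier results of these data known, so the counts do not test an excess. The median log2 fold change of the 10 was −0.25, beside 0.04 over all genes. *Cav3*, the muscle caveolin that binds dystroglycan, measured 78.0, 86.7 and 80.6 CPM in the ascending and 60.1, 76.3 and 83.3 CPM in the descending segments of controls. In mutants it measured 38.1, 45.3 and 29.3 CPM and 25.2, 37.5 and 22.1 CPM, so every mutant library was below the lowest control. *Cav3* fell by 1.25 on the log2 scale (SE 0.16, interval −1.60 to −0.89, adjusted p = 0.000433, edgeR). The γ-syntrophin genes, adaptors that bind dystrophin, fell too, *Sntg1* from 4.94 ± 1.86 to 1.13 ± 0.607 CPM (−2.07, SE 0.35, adjusted p = 0.00262) and *Sntg2* from 51.6 ± 4.61 to 35.3 ± 2.79 CPM (−0.55, SE 0.12, adjusted p = 0.0131). Once the 2 segments of each animal were summed, *Cav3* (adjusted p = 0.0207) and *Sntg1* (0.0336) passed and *Sntg2* (0.202) did not. The remaining 7 did not pass, among them *Sspn*, sarcospan, at 210 ± 74.3 and 233 ± 95.3 CPM, *Dtna*, α-dystrobrevin, at 213 ± 48.8 and 176 ± 31.8 CPM, and *Sntb2*, β2-syntrophin, at 35.5 ± 5.55 and 36.0 ± 12.1 CPM.

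*Cav3* also fell within each segment, by −1.12 (SE 0.24, adjusted p = 0.038) in the ascending and −1.37 (SE 0.24, adjusted p = 0.0104) in the descending aorta, with no interaction past the threshold (adjusted p = 1.0, edgeR). *Sntg1* had an adjusted p of 0.124 in the ascending and 0.0301 in the descending aorta, and *Sntg2* of 0.323 and 0.0812. The striated muscle markers, some of which share muscle expression with *Cav3*, summed to 33.9–58.9 CPM in controls and 22.6–127 CPM in mutants. Of the 9 tested, 1, *Actn2*, fell (9.65 to 2.25 CPM, adjusted p = 0.000769, edgeR) and 0 rose, beside 3.23% and 1.8% of all genes. At an unadjusted p under 0.05 stood 4 of the 9, beside 16.1% of all genes, with *Actn2* and *Acta1* lower and *Tnnt2* and *Actn3* higher in mutants. *Tnnt2* measured 16.3 ± 7.6 and 40.8 ± 37.0 CPM, with an adjusted p of 0.183 over 12 libraries and 0.0365 with counts summed per animal (edgeR). Their part in these values was not tested.

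**Figure D4:**
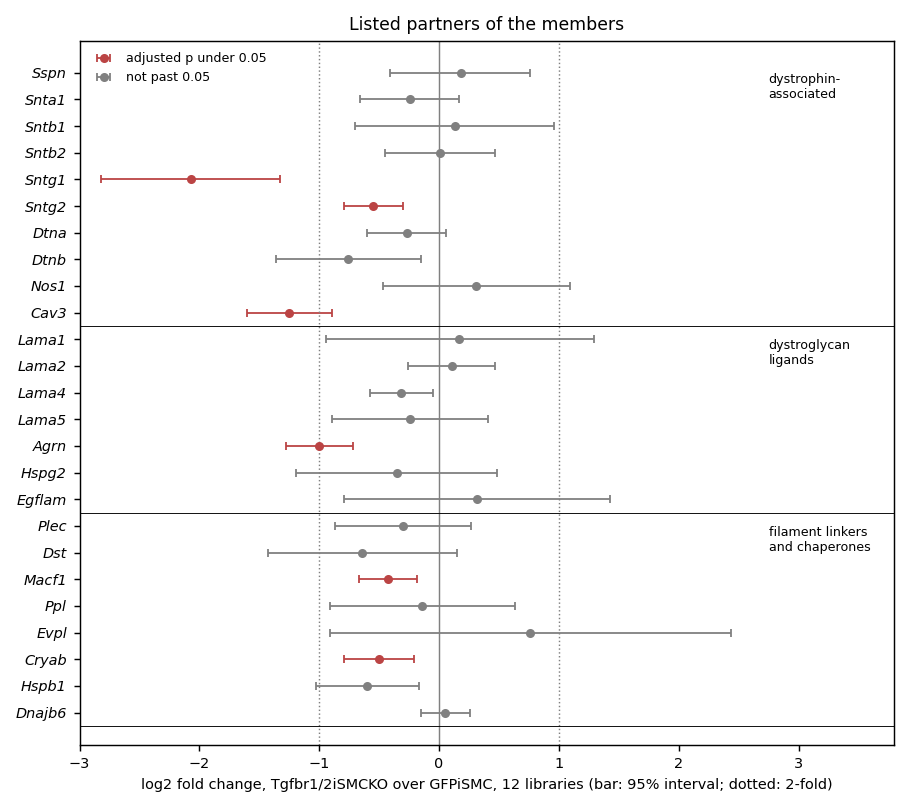
Log2 fold change over 12 libraries, Tgfbr1/2iSMCKO over GFPiSMC, with 95% intervals, of the tested genes of 3 lists around the members, red where the adjusted p was under 0.05. The 6 red genes, *Sntg1*, *Sntg2*, *Cav3*, *Agrn*, *Macf1* and *Cryab*, all lie below 0.

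The genes that act on dystroglycan were listed by role. Of 18 enzymes and cofactors of its O-mannosyl glycosylation, which makes it able to bind laminin, 0 passed the test in edgeR and 1, *Pomgnt1*, had an unadjusted p under 0.05 (25.2 ± 5.96 and 16.5 ± 5.91 CPM, log2 difference −0.64, adjusted p = 0.234), beside 16.1% of all genes. Of 7 extracellular ligands of dystroglycan, 1 fell and 0 rose, beside 3.23% and 1.8% of all genes. *Agrn*, agrin, measured 58.8, 49.0 and 50.9 CPM in the ascending and 54.7, 59.6 and 48.7 CPM in the descending segments of controls, against 28.5, 27.9 and 27.4 CPM and 21.6, 24.7 and 31.2 CPM in mutants. It fell by 1.0 on the log2 scale (SE 0.13, adjusted p = 0.000381, edgeR, and 0.0277 with counts summed per animal), and the genotypes did not overlap. Within segments its adjusted p was 0.0321 in the ascending and 0.0116 in the descending aorta. The laminin α chain genes *Lama4* (193 ± 30.4 and 154 ± 17.4 CPM), *Lama5* (57.4 ± 30.4 and 46.0 ± 17.3 CPM) and *Lama2* (45.2 ± 17.0 and 46.8 ± 12.7 CPM) did not pass.

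Around the filament members, 11 of 15 other intermediate filament genes could be tested, and 0 passed in edgeR, with 2 at an unadjusted p under 0.05, beside 16.1% of all genes. These were *Krt18*, a keratin gene, at 21.1 ± 13.0 and 43.7 ± 21.9 CPM (log2 difference 1.02, adjusted p = 0.265) and *Krt19* at 0.509 ± 0.499 and 0.0806 ± 0.0911 CPM (−2.71, adjusted p = 0.221, edgeR). *Lmna*, of the nuclear lamina, stood at 308 ± 106 and 264 ± 84.3 CPM, and *Sync*, syncoilin, at 36.5 ± 8.99 and 27.6 ± 8.27 CPM. Of 8 tested linkers and chaperones of filaments, 2 fell and 0 rose, beside 3.23% and 1.8% of all genes. *Macf1*, a cytoskeletal crosslinker, went from 462 ± 58.6 to 342 ± 52.8 CPM (−0.43, SE 0.11, adjusted p = 0.0472), with 1 mutant library inside the control range. *Cryab*, αB-crystallin, a chaperone of desmin and vimentin filaments, went from 747 ± 90.8 to 528 ± 99.9 CPM (−0.50, SE 0.13, adjusted p = 0.0484, edgeR) with no overlap. Both calls were lost in the fit summed by animal (adjusted p = 0.326 and 0.244) and held in 2 and 3 of 13 alternatives. Neither passed within a segment, at adjusted p of 0.448 and 0.224 for *Macf1* and 0.281 and 0.423 for *Cryab* in the ascending and descending aorta. *Hspb1*, the small heat shock protein that works with αB-crystallin, stood at 462 ± 87.7 and 306 ± 102 CPM. It did not pass (−0.6, SE 0.2, adjusted p = 0.123, edgeR), but did so in 2 of 13 alternatives. The plakin gene *Dst* (595 ± 257 and 381 ± 181 CPM) and the chaperone gene *Dnajb6* (155 ± 12.4 and 161 ± 13.7 CPM) did not pass either.

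The spread between animals of one group set how small a difference could be seen. The pooled within-group SD of log2 CPM was 0.17 to 0.33 for 8 of the 10 members, against medians of 0.23 to 0.31 among genes of similar level. *Des* had an SD of 0.56, above 84.7% of 3893 genes within 2-fold of its level. *Utrn* had an SD of 1.37, above 99.0% of 2324 such genes, whose median was 0.25, and its highest library of a group was up to 7.2 times the lowest. The lowest *Utrn* library held 667 counts and the highest 9718. What set this spread was not tested. The patterns most like that of *Utrn* over the 12 libraries, chosen after its spread had been seen, were those of *Stac*, *Mn1* and *Taf1* among 11149 genes. Their root mean square differences from it in centred log2 CPM were 0.52, 0.57 and 0.62, beside 1.15 for the deviation of *Utrn* itself. Taken as the smallest among 11149 genes, these distances are small by that choice and do not test a shared pattern.

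**Figure D5:**
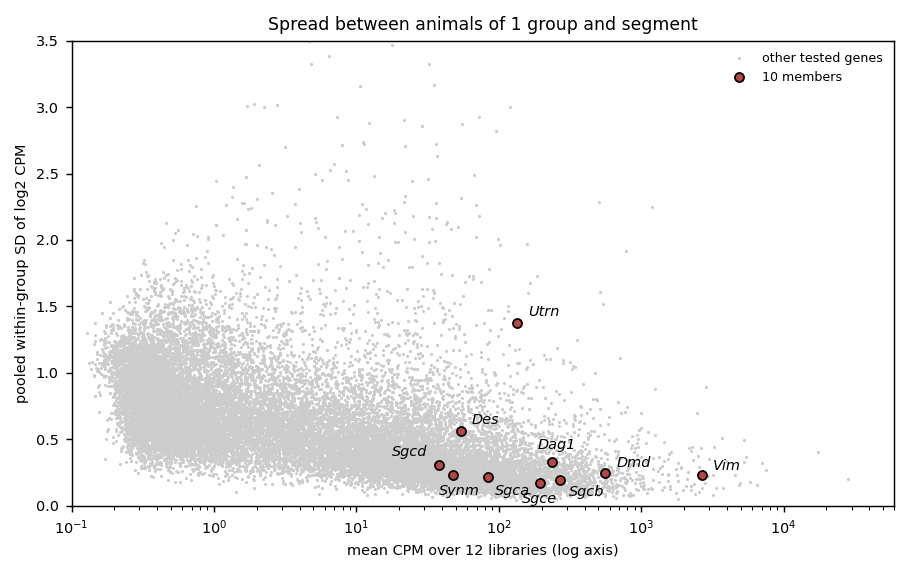
Pooled SD of log2 CPM between animals of one genotype and segment against mean CPM over 12 libraries (log axis), with the 10 members in red and the other tested genes in grey. *Utrn*, at 1.37, and *Des*, at 0.56, lie above the bulk of genes of their level, and the other members lie within it.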

How the data were processed

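The deposited table holds whole-number values per gene, used here as read counts, with more values of 2 (32279) than of 1 (22574). For it the authors trimmed reads with Trim Galore (v0.5.0), aligned them to GRCm38 with HISAT2 (v2.1.0) and quantified genes with StringTie (v1.3.3b); the step to whole counts is not given in the sources used here. Gene models were those of GENCODE M15. Names, positions and lengths came from GENCODE M21 of the same build (52489 of 52636 identifiers matched).

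Members and lists were chosen with earlier results of these data known. Named were all 10 members, the listed genes that passed, and at most 3 of the most abundant others in a list. *Pomgnt1*, *Krt19* and the markers named beside counts were chosen after their values were seen. edgeR 4.0.16 (quasi-likelihood, TMM factors, filterByExpr, 22320 genes, Benjamini-Hochberg) was fitted on ~segment + genotype, and on the 4 groups for contrasts. Intervals are 95% and cover the spread between libraries. The 2 segments of an animal are not independent, so counts summed per animal, and limma 3.58.1 with animal as a random effect (correlation 0.158), were run beside DESeq2 1.42.0 (R 4.3.3). CPM used TMM effective totals. That libraries of one number come from one animal was inferred from the numbers in the labels, which do not state it. The residuals of such pairs correlated at −0.243 to 0.665. Nothing says that animals of different genotypes share a number. P-values of the edgeR and DESeq2 fits on libraries measure the spread between libraries. Those of summed counts and of the exact ratio tests measure the spread between animals. No 2 replicates of a group agreed within sampling noise. A listed gene is not reported here.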

Additional observations from a re-analysis of the deposited data

How the results depend on the processing

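Of the results on members, ratios and counts recomputed without 1 animal, 346 kept their direction and their side of the threshold, 43 turned in sign and 1 gained a call. Under the other alternatives 318 kept both, 10 turned and 2 gained a call. The members called between genotypes over 12 libraries went from 0 to 1, *Vim*, with the replicate block (adjusted p = 0.0317) and with limma-voom (adjusted p = 0.0440), and ranged from 0 to 1 without 1 animal, the 1 arising without Tgfbr1/2iSMCKO animal 2. The log2 fold change of *Vim* was −0.42 and −0.43 in those fits and −0.55 to −0.26 without 1 animal. Replicate numbers did not pair the genotypes (correlations of same-numbered libraries −0.517 to 0.219), and the block changed no other member's call. All genes called went from 1123 to 451 with counts summed per animal, 2034 in DESeq2 and 622 to 1066 without 1 animal. The animal as a block changed no member's call between segments. The causes were not tested.

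Scaling by library totals turned *Sgce* between genotypes to 0.038, *Vim* in the interaction to 0.019, and *Dag1* and *Vim* between GFPiSMC segments to −8.2e-05 and −0.0049. *Vim* between Tgfbr1/2iSMCKO segments, −0.0046, became 0.0029 with RLE factors, 0.014 with library totals, 0.013 with the animal block and 0.0029 in DESeq2. The *Utrn* to *Dmd* difference was −0.39 in descending libraries alone, and that of *Sgcb* to *Sgcd* 0.13 in ascending ones.

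Without 1 animal, *Utrn* ranged from −0.64 to 0.20 over 12 libraries, −0.29 to 1.42 in the ascending and −1.09 to 0.33 in the descending segment, −2.29 to 0.62 in the interaction and −0.94 to 1.98 between GFPiSMC segments. *Synm* ranged from −0.071 to 0.22 in the ascending segment, −0.10 to 0.16 in the descending segment and −0.23 to 0.17 in the interaction. In the descending segment *Sgce* ranged from −0.061 to 0.14, *Sgca* from −0.13 to 0.17, *Sgcd* from −0.41 to 0.04 and *Des* from −0.22 to 0.58. In the interaction *Dag1* ranged from −0.17 to 0.47, *Des* from −0.72 to 0.23, *Dmd* from −0.13 to 0.35 and *Vim* from −0.11 to 0.01. Between GFPiSMC segments *Dmd* ranged from −0.09 to 0.39, *Sgcd* from −0.12 to 0.018 and *Dag1* from −0.30 to 0.34. Between Tgfbr1/2iSMCKO segments *Vim* ranged from −0.072 to 0.041, *Sgcd* from −0.012 to 0.24, *Des* from −0.32 to 0.63 and *Sgca* from −0.38 to 0.093. The ratio differences ranged from −0.25 to 0.94 for *Utrn* to *Dmd* and −0.31 to 0.21 for *Sgcb* to *Sgcd*.

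The smallest p of an exact test of 3 animals against 3 is 0.1. The *Utrn* counts ran from 667 to 9718 per library, with a within-group SD of 1.37 in log2, and the source of this spread was not tested.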
